A study of Mus musculus with 6 samples.

Results

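The genes that carry TGF-beta signals were compared between J110 and SSM3 cells, which are established mouse mammary tumour lines. The 10 genes were chosen by name, for their roles in the pathway. They are the 3 ligands Tgfb1, Tgfb2 and Tgfb3, the 3 receptors Tgfbr1, Tgfbr2 and Tgfbr3, the 2 receptor-activated SMADs Smad2 and Smad3, the inhibitory Smad7 and the matrix gene Tgfbi. All 10 were found among the 52636 genes of the count table. J110 cells came from transgenic mice in which the MMTV LTR drove a cDNA of AIB1 (the product of Ncoa3), and SSM3 cells from mammary tumours of 129SvEv mice. Each line was grown untreated and sequenced as 3 biological replicates. SSM3 cells were kept in more serum and more CO2 than J110 cells, and their medium also held transferrin and beta-mercaptoethanol. The line, the mice it came from and its culture therefore cannot be told apart. Each group is 1 line, and the p-values measure only the spread between its 3 cultures.

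TGF-beta ligands are secreted in a latent form that is held in the matrix by latent TGF-beta binding proteins. A released ligand binds the type II receptor, which recruits and activates the type I receptor, and this phosphorylates SMAD2 and SMAD3. These enter the nucleus together with SMAD4 and switch genes on or off, among them Smad7, whose protein blocks the receptor in turn. In mammary epithelium the pathway is known for restraining growth and for promoting a mesenchymal state.

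Libraries held from 4200785 to 5416305 counts. Levels are given as CPM, the counts scaled to a common library size with TMM factors, and differences as the log2 fold change of SSM3 against J110. The count of Ncoa3 was 110, 106 and 102 in J110 and 181, 199 and 186 in SSM3. The reads come from the 3′ ends of transcripts, and whether the transgene carries the 3′ end of Ncoa3 is not given in the sources used here. Ncoa3 is therefore no check of the labels, and J110 and SSM3 below stand for libraries so labelled. By flow cytometry, the paper classed SSM3 cells as luminal, with EpCAM on the surface, and reported that J110 cells appeared basal. The Epcam levels below, higher in SSM3, run the way the labels say. Of 9 mammary epithelial markers, 8 had more than 3 counts over the J110 libraries and 9 over the SSM3 libraries, and their summed level was 3061 to 3199 CPM in J110 and 13561 to 14973 CPM in SSM3. Epcam was at 0.681 ± 0.681 CPM for J110 against 507 ± 24.8 CPM for SSM3, Cdh1 at 4.02 ± 1.83 against 1374 ± 47.8 CPM and Krt19 at 18.6 ± 9.83 against 7412 ± 363 CPM (SD, n = 3 each), and Cldn3, Cldn4 and Cldn7 also were below 1 CPM on average in J110. The keratins Krt7, Krt8 and Krt18 were abundant in both lines, at 408, 1275 and 1430 CPM in J110 and 1005, 2270 and 970.0 CPM in SSM3, so Krt18 was the epithelial marker that was higher in J110. The 8 fibroblast or stromal markers summed to between 4960 and 5458 CPM in J110, nearly all of it Vim, and to between 1339 and 1487 CPM in SSM3, nearly all of it Dcn. Col1a2, Lum and Pdgfrb had no count in any library. The 8 leukocyte markers summed to between 29.2 and 35.0 CPM in J110 and between 14.7 and 17.4 CPM in SSM3, led by Cd68 and by Csf1r, whose counts nearly equal those of the overlapping Hmgxb3, and Itgam and Adgre1 were at 0. The 6 endothelial markers summed to between 159 and 182 CPM in J110, nearly all of it Cdh5, and to between 3.18 and 4.90 CPM in SSM3, with Tie1 at 0. The 4 erythroid and 4 platelet markers summed to at most 1.56 and 8.29 CPM in any library, led by Hba-a1 and Ppbp, with Hbb-bs at 0. In SSM3 replicate 2, 17 of 18 genes that were abundant in J110 and absent from the other SSM3 libraries had counts, at 0.458% of their J110 level, and in J110 replicate 3 the value was 0.178% (14 of 21 genes). The part of these signals in the results was not tested.

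Between the lines, 9 of the 10 genes had enough counts for the test and Tgfbi did not. In SSM3, 5 of the 9 were lower, 2 were higher and 2 did not pass the threshold of 0.05 (edgeR's quasi-likelihood test with Benjamini-Hochberg adjustment over 12284 genes). The receptors and Smad7 fell, Tgfb2 was nearly absent, Tgfb1 and Tgfb3 did not pass, and Smad2 and Smad3 rose, the former by a call that several alternatives ended. Most genes differed between these lines, with 77.9% of all genes tested past the threshold, 38.6% higher and 39.2% lower in SSM3, so the count of 7 of 9 is no higher than that of genes in general. A fall of at least 4-fold was seen in 4 of the 9 genes, against 11.7% of all genes tested. Of these 4, Tgfb2 and Tgfbr3 had enough counts for the test in J110 only. The libraries of the lines did not overlap in 7 of the 9 genes, against 79.6% of all genes tested. The median log2 fold change was -0.60 over the 9 genes and -0.014 over all genes tested. As the 10 genes were chosen with results of these data known, these shares are a description. In these bulk cultures, fewer cells that make a transcript and less transcript per cell cannot be told apart.

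**Figure D1:**
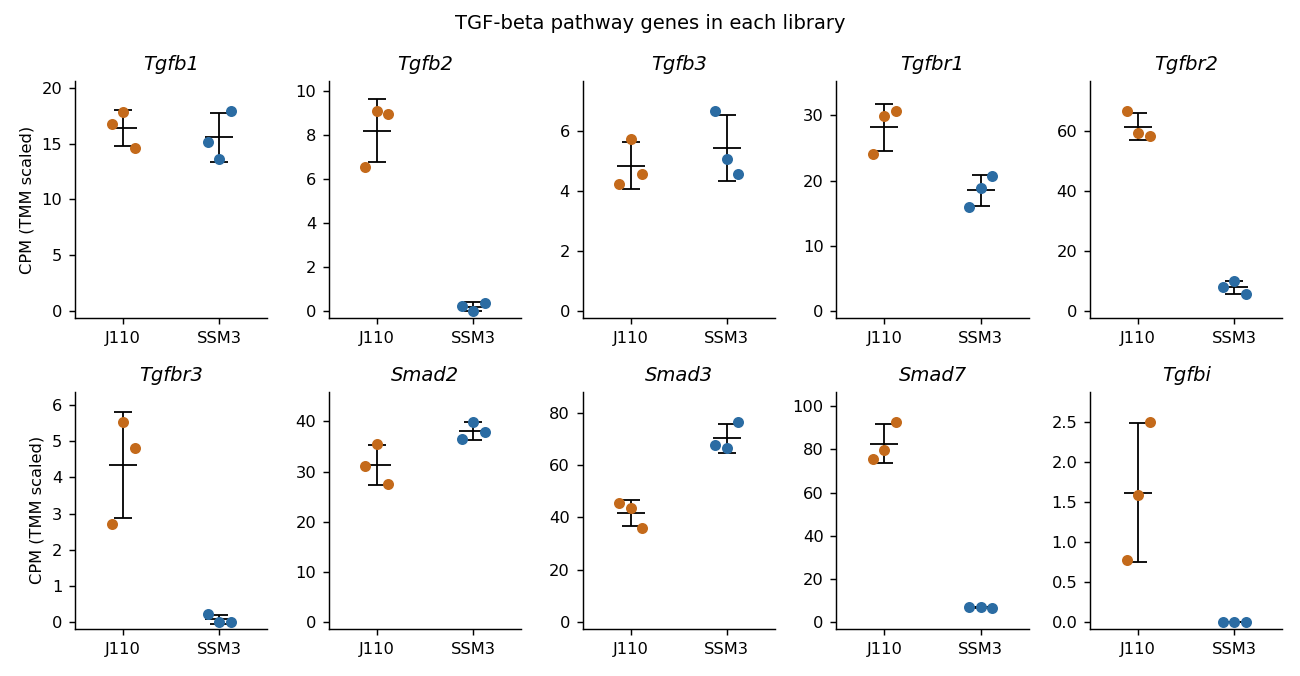
Level of each of the 10 genes in CPM (y axis, linear and different in each panel) in the 3 libraries of J110 (orange) and of SSM3 (blue). Points are libraries, and black bars give the mean and SD; Tgfb2, Tgfbr2, Tgfbr3 and Smad7 lie far lower in every SSM3 library than in any J110 library, while Tgfb1 and Tgfb3 overlap.

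Among the ligands, only Tgfb2 separated the lines. Tgfb1 (ENSMUSG00000002603, chromosome 7 of mm10 from 25687002 to 25705077, forward strand), the ligand made by most cell types, was counted 87, 90 and 70 times in the J110 libraries against 68, 64 and 90 in those of SSM3. This was 16.4 ± 1.63 CPM for J110 against 15.5 ± 2.19 CPM for SSM3 (SD, n = 3 each), and the libraries overlapped. The log2 fold change of Tgfb1 was -0.075, with a 95% interval from -0.42 to 0.27 (edgeR adjusted p = 0.681). Differences within that interval are not excluded. The sign of the log2 fold change turned with library sizes alone as the scaling (0.099). Tgfb3 (ENSMUSG00000021253, chromosome 12 from 86056745 to 86079041, reverse strand) was counted 22, 29 and 22 times in the J110 libraries against 30, 24 and 23 in those of SSM3. Its libraries overlapped as well, at 4.86 ± 0.782 CPM and 5.45 ± 1.10 CPM (SD, n = 3 each), and the log2 fold change of 0.16 had an interval from -0.39 to 0.71 (edgeR adjusted p = 0.586).

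Tgfb2 (ENSMUSG00000039239, chromosome 1 from 186622792 to 186705989, reverse strand), the ligand that depends most on the type III receptor for binding, was counted 34, 46 and 43 times in the J110 libraries against 1, 0 and 2 in those of SSM3. Every J110 library was above every SSM3 library, at 8.21 ± 1.43 CPM against 0.207 ± 0.199 CPM (SD, n = 3 each). The counts gave a level 38.8-fold lower in SSM3, with a 95% counting interval from 13.0 to 191 (edgeR adjusted p = 5.63e-08). The fitted log2 fold change of Tgfb2 was -5.12, and it moved to -5.93 without SSM3 replicate 3 and to -4.59 without SSM3 replicate 2. Such intervals pool the 3 libraries of a line and cover counting error only, so the spread between cultures is left out. The sources used here mention no molecular identifiers, so repeated reads of a molecule cannot be told from separate ones.

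Within each library, the counts of the 3 ligands were also set against their sum, a measure that does not depend on the scaling between libraries. Counts from 3′ ends follow the number of transcripts and not their length, so they were not divided by length. Tgfb1 made up 60.8%, 54.5% and 51.9% of the ligand counts in J110 and 68.7%, 72.7% and 78.3% in SSM3. The share of Tgfb1 was thus higher in every SSM3 library, by 17.5 percentage points (permutation test, exact and two-sided, p = 0.1, which is the lowest p that 3 libraries against 3 can give). Tgfb2 is in the denominator of this share. Of the counts of Tgfb1 and Tgfb3 alone, an alternative added after the data were seen, Tgfb1 made up 79.8%, 75.6% and 76.1% in J110 and 69.4%, 72.7% and 79.6% in SSM3, and the lines overlapped (exact permutation test, two-sided, p = 0.4). The exact (Clopper-Pearson) 95% intervals of the share among all 3 ligands also overlapped between single libraries, from 52.3% to 68.9% for J110 replicate 1, the highest of J110, and from 58.6% to 77.6% for SSM3 replicate 1, the lowest of SSM3. Among values chosen after the data were seen, Tgfb2 made up from 23.8% to 31.9% of the ligand counts in J110 and from 0 to 1.74% in SSM3, where 0 of 88 counts in replicate 2 allow a share of up to 4.11% by the same interval. The summed level of the 3 ligands, also chosen then, was 29.5 ± 2.77 CPM for J110 against 21.2 ± 2.22 CPM for SSM3 (SD, n = 3 each).

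**Figure D2:**
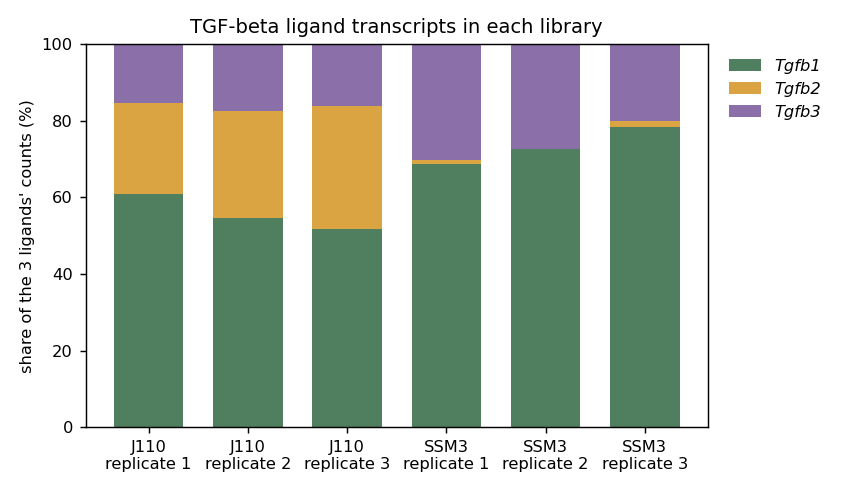
Share of each ligand in the summed counts of Tgfb1, Tgfb2 and Tgfb3 (y axis, percent) in each of the 6 libraries (x axis). Tgfb2 takes 23.8% to 31.9% in J110 libraries and at most 1.74% in SSM3 libraries.

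The promoters of Tgfb1, whose level overlapped between the lines, and of Tgfb2 and Tgfbr2, which fell in SSM3, are shown as examples of the windows searched. Each is the 250 bases before the start site, from RefSeq on GRCm38.p6, read 5′ to 3′ on the strand of the gene. Of the 10 genes, 6 had an entry, and Tgfb3, Tgfbr3, Smad2 and Smad7 had none. Capitals mark matches on either strand to the SMAD box CAGAC, to the GC-rich SMAD motif GGCGC or to the AP-1 motif TGAGTCA, which do not overlap each other in these windows.
Tgfb1 chr7:25686752-25687001 forward strand: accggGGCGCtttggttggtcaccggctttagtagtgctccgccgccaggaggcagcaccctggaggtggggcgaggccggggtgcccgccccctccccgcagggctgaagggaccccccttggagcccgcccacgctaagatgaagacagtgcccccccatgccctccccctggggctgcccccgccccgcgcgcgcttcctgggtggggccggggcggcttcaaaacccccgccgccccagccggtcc
Tgfb2 chr1:186705990-186706239 reverse strand: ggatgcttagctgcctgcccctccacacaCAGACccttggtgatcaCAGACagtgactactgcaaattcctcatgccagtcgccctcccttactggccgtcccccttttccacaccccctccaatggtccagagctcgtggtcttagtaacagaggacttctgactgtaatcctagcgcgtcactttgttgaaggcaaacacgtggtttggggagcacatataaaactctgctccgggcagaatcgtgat
Tgfbr2 chr9:116175364-116175613 reverse strand: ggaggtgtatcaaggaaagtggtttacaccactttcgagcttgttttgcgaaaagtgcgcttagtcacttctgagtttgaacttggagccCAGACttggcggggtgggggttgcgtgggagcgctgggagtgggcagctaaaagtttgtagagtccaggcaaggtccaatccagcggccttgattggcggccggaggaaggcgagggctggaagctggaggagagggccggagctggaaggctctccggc

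The SMAD box was found 2 times in the Tgfb2 window, 1 time in that of Tgfbr2 and 0 times in that of Tgfb1, and 42.2% of all 32851 promoter windows of this length hold it. GGCGC was found 1 time, in the Tgfb1 window, and 32% of all windows hold it. The AP-1 motif was in none of the 3, and 4.46% of all windows hold it. The Tgfb1 window is 75.2% G or C, that of Tgfb2 53.6% and that of Tgfbr2 58.4%. The other windows searched, which are not printed, do not follow the same pattern. Tgfbr1, which also fell, had 2 windows, one of them with 0 matches to the SMAD box, 3 to GGCGC and 74.8% G or C, and the other with 1, 0 and 52.8%. Smad3 had 0 matches to any of the motifs, and Tgfbi had 2 to the SMAD box and 3 to GGCGC. These matches describe the letters of the windows only.

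All 3 receptors were lower in SSM3, by very different amounts. Tgfbr2 (ENSMUSG00000032440, chromosome 9 from 116084293 to 116175360, reverse strand), the type II receptor kinase that binds the ligand first, was counted 345, 300 and 279 times in the J110 libraries against 36, 47 and 29 in those of SSM3. Every J110 library exceeded every SSM3 library, at 61.4 ± 4.50 CPM against 7.92 ± 2.11 CPM (SD, n = 3 each). Tgfbr2 was 7.76-fold lower in SSM3, at -2.96 ± 0.16 (SE) on the log2 scale (edgeR adjusted p = 3.91e-11). The SSM3 level was 12.9% of the J110 level.

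Tgfbr1 (ENSMUSG00000007613, chromosome 4 from 47353222 to 47414931, forward strand), the type I receptor kinase that phosphorylates SMAD2 and SMAD3, was counted 125, 151 and 147 times in the J110 libraries against 72, 89 and 104 in those of SSM3. The lines did not overlap, at 28.2 ± 3.59 CPM and 18.5 ± 2.35 CPM (SD, n = 3 each). Its fall was the smallest of the 3 receptors, 1.52-fold, at -0.60 ± 0.15 (SE) on the log2 scale (edgeR adjusted p = 0.00161). Tgfbr3 (ENSMUSG00000029287, chromosome 5 from 107106570 to 107289629, reverse strand), which encodes the co-receptor betaglycan, was counted 14, 28 and 23 times in the J110 libraries against 1, 0 and 0 in those of SSM3. It was low in J110, at 4.35 ± 1.47 CPM (SD, n = 3), and close to absent from SSM3. The ratio of the counts was 61.5-fold lower in SSM3, with a 95% counting interval from 10.7 to 2466 (edgeR adjusted p = 2.20e-06). The fitted log2 fold change of Tgfbr3 was -5.50, and it moved to -7.43 without SSM3 replicate 1, which held the only SSM3 count, and to -4.80 with limma-voom. Both Tgfb2 and Tgfbr3, the ligand and its co-receptor, were thus at no more than 3 counts over all SSM3 libraries.

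The balance of the receptors was compared within libraries as log2 count ratios, with 0.5 added to each count. The ratio of Tgfbr2 to Tgfbr1, chosen after the values were seen, was 1.46, 0.99 and 0.92 in J110 and -0.99, -0.91 and -1.82 in SSM3. Tgfbr2 was therefore counted more often than Tgfbr1 in every J110 library and less often in every SSM3 library (the same exact permutation test, p = 0.1). The ratio of Tgfbr3 to Tgfbr2 was -4.57, -3.40 and -3.57 in J110 and -4.60, -6.57 and -5.88 in SSM3 (the same exact permutation test, p = 0.1). The SSM3 values rest on 1 count of Tgfbr3, in replicate 1, and the other libraries on the added 0.5. With -4.57 so close to -4.60, the separation depends on that added value, so this test decides nothing.

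**Figure D3:**
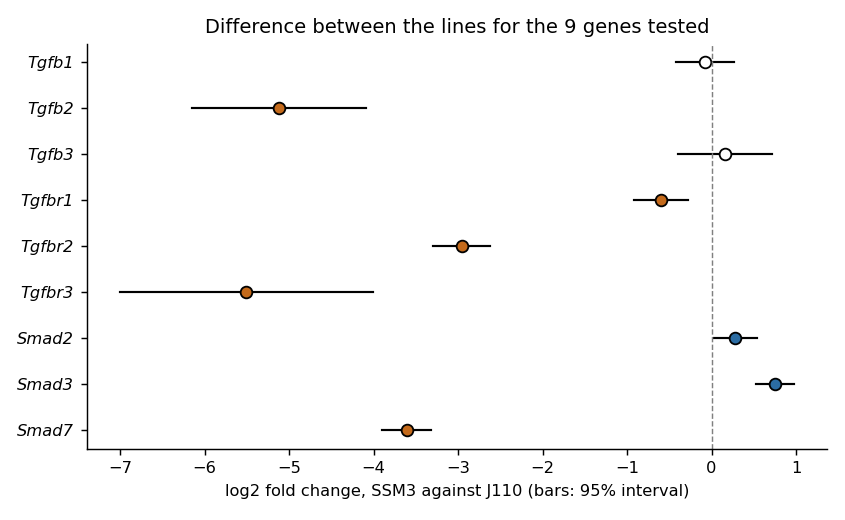
Log2 fold change of SSM3 against J110 (x axis) for the 9 genes tested, with 95% intervals as bars. Filled points passed the threshold, orange lower and blue higher in SSM3, and open points did not; Tgfb2, Tgfbr3, Smad7 and Tgfbr2 are the farthest from 0, between -5.50 and -2.96.

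Smad2 and Smad3, the SMADs that the receptors activate, were not lower in SSM3. Smad3 (ENSMUSG00000032402, chromosome 9 from 63646767 to 63757994, reverse strand), which binds DNA directly in the nucleus, was counted 237, 220 and 173 times in the J110 libraries against 304, 313 and 385 in those of SSM3. Each SSM3 library was above each J110 library, at 70.3 ± 5.53 CPM against 41.8 ± 5.03 CPM (SD, n = 3 each). Smad3 was 1.68-fold higher in SSM3, at 0.75 ± 0.11 (SE) on the log2 scale (edgeR adjusted p = 6.83e-06). Smad2 (ENSMUSG00000024563, chromosome 18 from 76241580 to 76310963, forward strand), the other substrate of the type I receptor, was counted 161, 179 and 132 times in the J110 libraries against 164, 188 and 190 in those of SSM3. In CPM the lines did not overlap, at 31.3 ± 3.94 CPM and 38.1 ± 1.72 CPM (SD, n = 3 each). The log2 fold change of Smad2 was 0.28 (standard error 0.12, edgeR adjusted p = 0.0432), which DESeq2 did not call (adjusted p = 0.110), and its adjusted p lay between 0.00332 and 0.187 under the 14 alternatives. Without J110 replicate 3 the log2 fold change of Smad2 was 0.19, and the call was also lost without J110 replicate 1 (0.26), SSM3 replicate 2 (0.25) or SSM3 replicate 3 (0.29).

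The log2 ratio of Smad3 to Smad2 counts was 0.41 ± 0.13 in J110 and 0.88 ± 0.14 in SSM3 (SD, n = 3 each), with no overlap between the lines (exact two-sided permutation test, p = 0.1). Smad3 was thus the more abundant of the pair in every library, and more so in SSM3.

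Smad7 (ENSMUSG00000025880, chromosome 18 from 75367529 to 75395935, forward strand), the inhibitory SMAD that TGF-beta itself induces, was counted 393, 403 and 445 times in the J110 libraries against 31, 33 and 32 in those of SSM3. The SSM3 libraries lay close together and far below those of J110, at 6.76 ± 0.343 CPM against 82.8 ± 8.95 CPM (SD, n = 3 each). Smad7 was 12.2-fold lower in SSM3, at -3.61 ± 0.14 (SE) on the log2 scale (edgeR adjusted p = 4.00e-13). On chromosome 18, Smad7 and Smad2 are 845644 bases apart, yet the former fell and the latter did not. The log2 ratio of Smad7 to Smad3, chosen after the values were seen, was 0.73, 0.87 and 1.36 in J110 and -3.27, -3.23 and -3.57 in SSM3. The inhibitor was counted more often than Smad3 in every J110 library and less often in every SSM3 library (exact two-sided permutation test, p = 0.1).

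**Figure D4:**
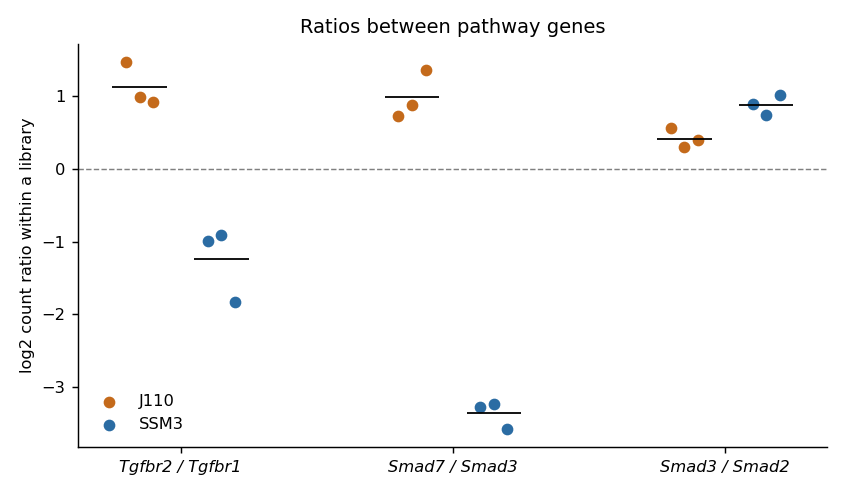
Log2 ratio of the counts of 2 genes within a library (y axis) for 3 gene pairs, in J110 (orange) and SSM3 (blue), with points for libraries and lines for means. Tgfbr2 to Tgfbr1 and Smad7 to Smad3 lie above 0 in each J110 library and below 0 in each SSM3 library, and Smad3 to Smad2 lies above 0 in all.

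Tgfbi (ENSMUSG00000035493, chromosome 13 from 56609523 to 56639562, forward strand), a secreted matrix protein named for its induction by TGF-beta, was counted 4, 8 and 12 times in the J110 libraries and never in SSM3. It did not pass the filter of the main test. With at least 1 count in any library as the filter, all 10 genes were tested and Tgfbi was the sixth gene called lower. Against a floor of 3 counts over the SSM3 libraries, it was at least 7.57-fold lower in SSM3. Of the 10 genes, Tgfb2, Tgfb3 and Tgfbr3 share exon positions with other annotated genes, which had at most 1 count in any library, and the other 7 share none.

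The order of the levels differed between the lines. In J110, Smad7 was highest, then Tgfbr2, Smad3, Smad2, Tgfbr1, Tgfb1, Tgfb2, Tgfb3, Tgfbr3 and Tgfbi. Only Smad2 and Tgfbr1, and Tgfb3 and Tgfbr3, overlapped among neighbours in that order. In SSM3, Smad3 was highest, then Smad2, Tgfbr1, Tgfb1, Tgfbr2, Smad7, Tgfb3, Tgfb2, Tgfbr3 and Tgfbi. There Tgfbr1 and Tgfb1, Tgfbr2 and Smad7, and Smad7 and Tgfb3 overlapped, as did the 3 lowest. Smad7 passed from the first place in J110 to the sixth in SSM3.

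The same fit was read for 64 other genes of the pathway, in 5 lists. Of 54 tested, 10 were higher and 35 lower in SSM3, with a median log2 fold change of -0.69. These 45 called of 54, and the counts of each list below, stand beside 77.9% of all genes tested that were called, 38.6% higher and 39.2% lower, and beside their median of -0.014, and nothing particular to the lists is read from them. Of the 11 genes of latency and activation, 7 were tested, with 2 higher, 4 lower (against 38.6% and 39.2%) and a median of -0.39. Ltbp1, which binds the latent complex to the matrix, fell from 230 ± 9.60 to 55.3 ± 4.37 CPM (SD, n = 3 each). Thbs1, the matrix protein thrombospondin-1 that can activate latent TGF-beta, fell from 58.6 ± 14.8 to 0.426 ± 0.229 CPM (SD, n = 3 each). Itgav, an integrin chain that binds the latent complex, was lower by a log2 fold change of -0.39 (edgeR adjusted p = 0.00268), a call lost with library sizes alone as the scaling (-0.22). Furin, the protease that cleaves the ligand precursors, was higher, at 345 ± 47.3 CPM against 143 ± 22.2 CPM in J110 (SD, n = 3 each). Itgb6, the partner of Itgav in an epithelial activating integrin, was also higher, at 21.8 ± 1.17 CPM against 2.07 ± 0.393 CPM (SD, n = 3 each). Of the 5 called genes named here, 3 fell and 2 rose.

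Of the 7 co-receptors and other SMADs, 6 were tested, with 1 higher, 3 lower (against 38.6% and 39.2%) and a median of -0.38. Smad4, the shared partner of all receptor-activated SMADs, was lower by a log2 fold change of -0.64 (edgeR adjusted p = 6.51e-06). Smad1, which responds to BMPs, was lower by -0.75, and Smad5, of the same branch, was higher by 0.53 on the log2 scale. Smad9, the remaining SMAD of that branch, had 27, 28 and 22 counts in J110 and none in SSM3, at least 24.3-fold lower. Of the 11 negative regulators, 10 were tested, with 2 higher, 6 lower (against 38.6% and 39.2%) and a median of -0.64. Pmepa1, a membrane protein induced by TGF-beta that restrains SMAD2 and SMAD3, fell from 684 ± 49.2 to 286 ± 19.1 CPM (SD, n = 3 each). The corepressors Ski and Tgif1 were lower by log2 fold changes of -1.42 and -0.67. Nedd4l, a ubiquitin ligase that acts on activated SMADs, was higher, at 125 ± 6.65 CPM against 17.8 ± 0.882 CPM (SD, n = 3 each). Tgif2 was higher by 4.41 on the log2 scale, but a gene on the opposite strand that shares its exon positions had more counts in every library, so its value is uncertain.

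Of the 15 activin and BMP genes, 13 were tested, with 1 higher, 9 lower (against 38.6% and 39.2%) and a median of -2.09. The receptors Acvr1, Acvr2a and Bmpr1a were lower by log2 fold changes of -2.09, -0.85 and -0.57. The exons of Acvr2a overlap Orc4, which had more counts, so its value is uncertain. Inhbb, which encodes the activin B subunit, was counted 1, 0 and 2 times in the J110 libraries against 831, 929 and 1016 in those of SSM3. Inhba, the activin A subunit, was the reverse, with 1131, 1112 and 1128 counts in J110 against 1, 5 and 1 in SSM3. Bmp7, with 1226, 1172 and 1222 counts in J110, had 0, 3 and 0 counts in SSM3, and Bmp4, with 953, 902 and 803 counts in J110, had 0, 4 and 0. These 3 were named after their values were seen, and their SSM3 counts fell mostly in replicate 2, the library with low counts on many J110 genes. Bmp4 also shares exon positions with Gm15217 on the opposite strand.

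Of 20 genes known to be induced or regulated by TGF-beta, 18 were tested, with 4 higher, 13 lower (against 38.6% and 39.2%) and a median of -1.68. With library sizes alone as the scaling, 10 were lower, as the calls of Id1, Id3 and Bhlhe40 were lost. Fn1, which encodes fibronectin, fell from 666 ± 35.2 to 67.2 ± 1.62 CPM (SD, n = 3 each), and Tpm1, an actin-binding tropomyosin, from 889 ± 52.2 to 106 ± 5.63 CPM (SD, n = 3 each). Id3, an inhibitor of helix-loop-helix factors, was lower by a log2 fold change of -0.33 (edgeR adjusted p = 0.00288), and by -0.16 with library sizes alone. Tgm2, a transglutaminase, was higher, at 755 ± 45.8 CPM against 32.6 ± 0.993 CPM (SD, n = 3 each), and Itgb5, another partner of Itgav, at 103 ± 5.69 CPM against 31.7 ± 1.05 CPM (SD, n = 3 each). Junb was higher by 0.25 on the log2 scale (edgeR adjusted p = 0.0235), a call lost without J110 replicate 1 (0.22), J110 replicate 3 (0.23) or SSM3 replicate 1 (0.12), and it shares exon positions with Prdx2. Named after its values were seen, as were the genes that follow, Ccn2, the connective tissue growth factor, was counted 2508, 2104 and 1839 times in the J110 libraries against 1, 7 and 4 in those of SSM3. Snai2, a repressor of epithelial genes, was counted 227, 262 and 237 times in the J110 libraries against 0, 1 and 0 in those of SSM3. Cdkn2b, a cell cycle inhibitor that TGF-beta induces in epithelial cells, went the other way, with no count in J110 and 40, 28 and 19 counts in SSM3, at least 30.7-fold higher. All 5 lists had a lower median than the -0.014 of all genes tested. The lists were chosen with earlier results of these data known, so no fall of the pathway is read from this. Some genes, such as Smad9 and Snai2, also passed the filter through J110 alone, and others, such as Cdkn2b, through SSM3 alone.

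**Figure D5:**
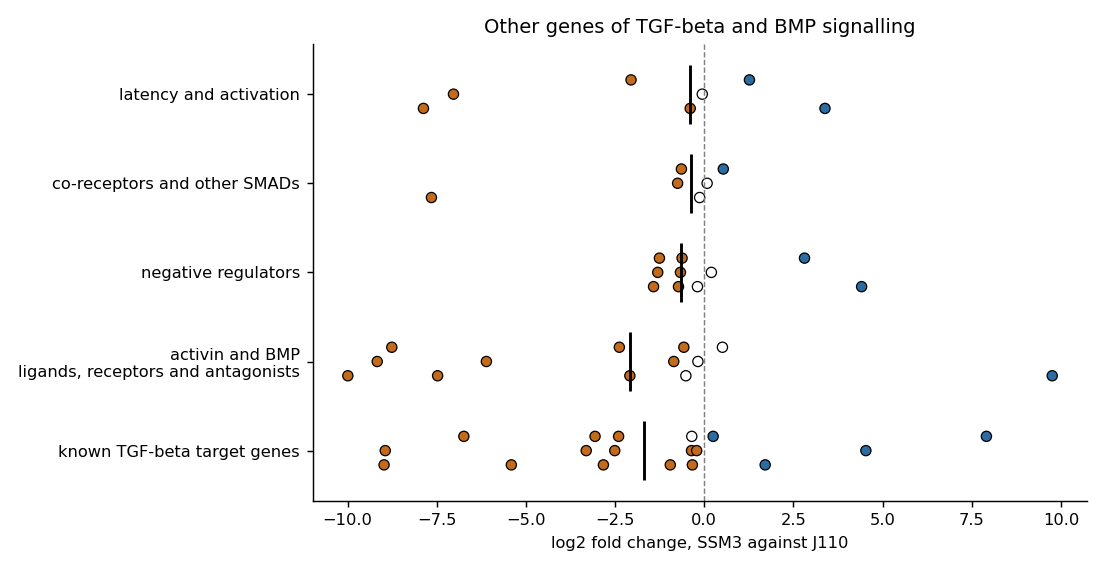
Log2 fold change of SSM3 against J110 (x axis) of each tested gene of the 5 lists (rows), with black ticks at the list medians. Filled points passed the threshold, orange lower and blue higher in SSM3, and open points did not; the medians lie between -2.09 and -0.38, with genes far from 0 on both sides.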

How the data were processed

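RNA of 3 biological replicates each of J110 and SSM3 cells was made into 3′ end libraries. The authors trimmed reads with cutadapt 2.1, mapped them to mm10 with HISAT2 2.0.4, counted them per Ensembl gene with featureCounts of Subread 2.0.0 and deposited raw counts without normalisation (versions from the submitters' processing notes). Strand and overlap settings are not given in the sources used here. Symbols and coordinates came from GENCODE (GRCm38), which matched 52489 of 52636 identifiers (99.7%).

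Counts were filtered with filterByExpr (12284 genes kept), scaled with TMM and tested with edgeR's quasi-likelihood test (version 4.0.16, R 4.3.3) at an adjusted p of 0.05. The standard error is the size of the log2 fold change over the square root of F. Replicates differed by more than sampling noise (chi-square per degree of freedom 2.21 to 5.62), so none was a copy. The test was tried on simulated counts first. Alternatives were DESeq2 1.42.0, limma-voom 3.58.1, other scalings and filters, a block for the replicate number, and fits without single libraries. Exon overlaps were read from the annotation on both strands. Named genes are the 10 members and, per list and direction, the 3 genes called with the highest mean log2 CPM (prior count 2); others were chosen after their values were seen. The members and lists were chosen with earlier results of these data known. No protein sequences were used here, and some items are not reported here.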

Additional observations from a re-analysis of the deposited data

How the results depend on the processing

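The values were recomputed under 14 alternatives, 6 of them leaving out a library. Tgfb2, Tgfbr1, Tgfbr2, Tgfbr3, Smad3 and Smad7 kept their direction and their call wherever they could be tested; a minimum of 10 counts in every library removes Tgfb2 and Tgfbr3 by construction. That filter left 3 members called lower in place of 5. It left 1 gene higher and 2 lower among latency genes, and 0 higher and 4 lower among activin and BMP genes. Members called higher were 1 in place of 2 with DESeq2, upper quartile scaling or that filter, and 1 to 2 without single libraries, which is the call of Smad2. The log2 fold change of Smad2 was 0.28 with DESeq2 (adjusted p = 0.110), 0.25 with upper quartile scaling (adjusted p = 0.0735), 0.26 with that filter (adjusted p = 0.0576) and 0.19 to 0.37 without single libraries, in a range of adjusted p from 0.00332 to 0.187. Activin and BMP genes called higher were 2 with library size only or with at least 1 count in any library, and 1 to 2 without single libraries. Negative regulators called higher were 2 to 4 without single libraries. Bambi entered the test and was called in those with 3 or 4, Skil was also called in those with 4 (without J110 replicate 2 or SSM3 replicate 3), and with library size only 3 were called, Skil among them. Library size only moved the median of all genes tested from -0.014 to 0.16. It turned the log2 fold changes of Tgfb1 to 0.099, Ltbp3 (whose counting is uncertain) to 0.12 and Zfyve9 to 0.050, and ended the calls of Itgav and of 3 target genes, Id1, Id3 and Bhlhe40, which left 10 target genes called lower in place of 13. Without single libraries the log2 fold change of Tgfb1 ran from -0.19 to 0.020, that of Tgfb3 from -0.0023 to 0.29, that of Eng (uncertain, since Fpgs on the opposite strand shares its exon positions and had more counts) from -0.066 to 0.22 and that of Zfyve9 from -0.27 to 0.079, and none of these was called. The cause was not tested. Whether replicate numbers pair the libraries was not settled. Deviations of same-numbered libraries correlated at only 0.012 to 0.027, although each library correlated best with its own number. With the replicate block, genes called between SSM3 and J110 were 9481 in place of 9566, and no member's call changed. With at least 1 count in any library as the filter, 10 members were tested and 6 called lower, Tgfbi among them. With Tgfb1 plus Tgfb3 as the denominator, an alternative chosen after seeing the data, the share of Tgfb1 differed by -3.26 percentage points in place of 17.5.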

Other observations

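Some pathway genes outside the test had counts mostly or only in 1 line. Bambi, which encodes a pseudoreceptor that dampens TGF-beta signals, was counted 1, 0 and 3 times in the J110 libraries against 48, 43 and 9 in those of SSM3, with the lowest SSM3 value in replicate 3. Nrros, which anchors latent TGF-beta on macrophages and microglia, was counted 0 times in J110 against 5, 9 and 5 in the SSM3 libraries. Ltbp4, a binding protein of latent TGF-beta in the matrix, was counted 19, 6 and 11 times in the J110 libraries against 1, 1 and 0 in those of SSM3. Itgb8, an integrin chain that activates latent TGF-beta, and Lrrc32, which presents it on regulatory T cells, had no count in any library.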
